A study of Mus musculus with 8 samples.

Results

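The genes described here encode 10 collagen chains that build or decorate collagen fibrils, taken by name from the 31053 genes counted. They are *Col1a1*, *Col1a2*, *Col3a1*, *Col5a1*, *Col5a2*, *Col5a3* and *Col27a1* among the fibrillar chains, and *Col12a1*, *Col14a1* and *Col16a1* among the fibril-associated chains with interrupted triple helices (FACIT). RNA was measured in primary fibro/adipogenic progenitors (FAPs), the mesenchymal cells of skeletal muscle that can become fat or scar-forming cells, from hind limb muscles of C57BL/10ScSn-Dmdmdx/J (mdx) mice aged 45 days. The cells were sorted by the surface level of SCA-1, the protein of *Ly6a*, into SCA1-High-FAPs and SCA1-Low-FAPs, and both states were then grown for 5 days in the same serum-rich growth medium with no inducer of differentiation. Each cell state had 4 biological replicates, and the 8 samples came from 4 mice in all, without a statement of which samples share a mouse. Both states carried the dystrophin mutation of the mdx strain and no sample came from healthy muscle, so the comparison is between 2 sorted fractions of dystrophic cells after culture. A group is named after the surface protein at sorting, 5 days before RNA was taken.

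Fibrillar collagens are made as procollagen trimers, trimmed outside the cell, and packed into the striated fibrils that give tissue its tensile strength. Types I and III form the bulk of the fibrils in the connective tissue of muscle, type V sits in their core and limits their width, and FACIT chains coat the fibril surface and link it to neighbouring molecules. FAPs are known as a main source of this matrix in muscle, and its build-up is the fibrosis of dystrophic muscle.

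Gene counts summed to between 1880561 and 3985656 in a sample, and the 10 chains had between 28 and 35790 counts in a sample. All levels below are CPM, a gene's counts scaled to a common library size with TMM factors, and at this depth 3 counts, taken as the least that can be shown, correspond to 0.753 to 1.60 CPM. This floor covers counting error only. The libraries read 3′ ends, so that a transcript is meant to give tags regardless of its length. Whether different genes give equal numbers of tags per transcript was not checked, so levels and ratios of different chains below compare tags only. In SCA1-High-FAPs *Ly6a* had 707 ± 183 CPM and in SCA1-Low-FAPs it had 1081 ± 58.4 CPM (SD, n = 4 each), which differed by a log2 fold change of 0.61 (edgeR adjusted p = 0.0341), so after culture the mRNA of the sorting marker was higher in the cells sorted as low. *Pdgfra*, the receptor that defines FAPs, was present in both states at 221 ± 51.9 and 167 ± 14.1 CPM (SD, n = 4 each). Of 8 FAP markers 5 were tested, and *Ly6a* and *Thy1* were called, both higher in SCA1-Low-FAPs, while *Dpp4* had 0 counts in all samples. That is 40.0% of those tested, beside 3.32% of all genes called higher in SCA1-Low-FAPs. SCA1-Low-FAPs replicate 3 stood apart for the collagen genes. Over the 10 chains its log2 CPM lay on average 0.46 above the mean of its state, the farthest of the 8 samples. Log2 fold changes of chains that lean on it are given with and without it.

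Of the 10 chains, 5 differed between the cell states. *Col3a1*, *Col5a3*, *Col27a1* and *Col14a1* were higher in SCA1-High-FAPs by 2.04-fold to 3.05-fold, whereas *Col12a1* was 1.76-fold higher in SCA1-Low-FAPs. *Col1a1*, *Col1a2*, *Col5a1*, *Col5a2* and *Col16a1* did not pass. A gene was called when the Benjamini-Hochberg adjusted p-value of edgeR's quasi-likelihood test over all 10181 genes tested was under 0.05 and its log2 fold change, SCA1-Low-FAPs over SCA1-High-FAPs, was beyond 0.5 in size. Among all genes tested, 4.36% were called higher in SCA1-High-FAPs and 3.32% higher in SCA1-Low-FAPs, 7.68% in all, beside 4 and 1 of the 10 chains. The groups of samples did not overlap for the same 5 chains, 4 with SCA1-High-FAPs higher and 1 with SCA1-Low-FAPs higher, where 7.46% and 6.67% of all genes were so, 14.1% in all. With library totals in place of TMM, a scaling added here after the data were seen, the groups of *Col3a1* overlapped and 4 chains remained apart. The log2 fold change was below 0 for 8 of the 10 chains and for 50.0% of all genes, with medians of −0.44 and 0.0003. The 8 include *Col5a2* at −0.0003, whose sign changed between alternatives. When each of the 8 samples was left out in turn, 1 to 5 chains were called higher in SCA1-High-FAPs. There were 5 without SCA1-Low-FAPs replicate 3, 1 each without SCA1-Low-FAPs replicate 1 or 2, and 2 each without SCA1-Low-FAPs replicate 4, SCA1-High-FAPs replicate 3 or SCA1-High-FAPs replicate 4. Because samples of the 2 states may share a mouse and the pairs are not given, p-values measure the spread between these samples. In bulk RNA, fewer cells making a collagen and less of its RNA per cell cannot be told apart.

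**Figure D1:**
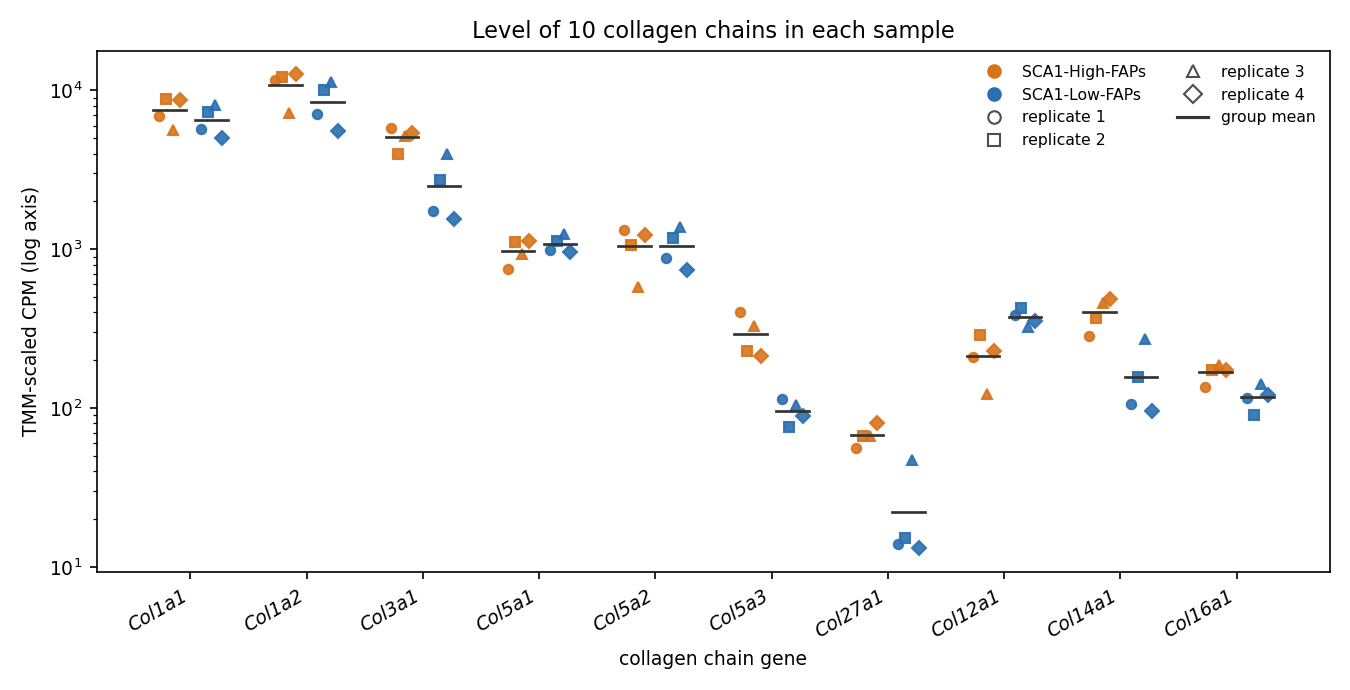
CPM (log axis) of each collagen chain in the 4 samples of SCA1-High-FAPs (orange) and the 4 of SCA1-Low-FAPs (blue), with one symbol per replicate number and a bar at each group mean. The groups are apart for Col5a3, Col27a1, Col12a1 and Col14a1 and touch for Col3a1, and the triangle of SCA1-Low-FAPs replicate 3 is the highest of its group for 8 of the 10 chains.

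**Figure D2:**
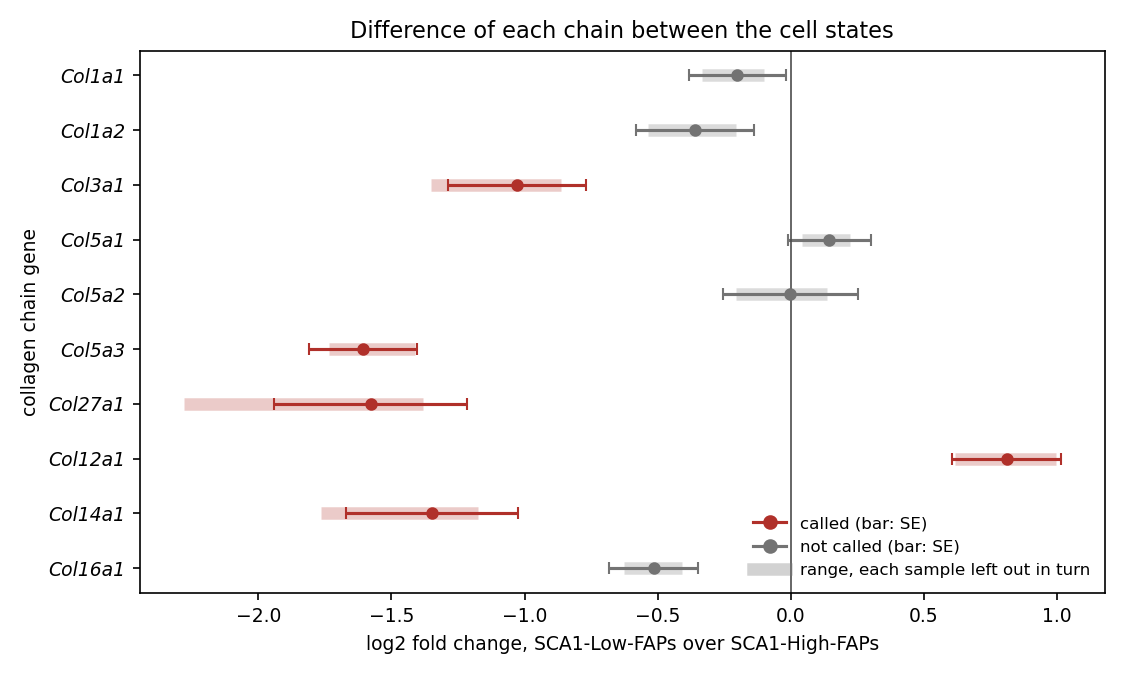
Log2 fold change of each chain, SCA1-Low-FAPs over SCA1-High-FAPs, with its standard error (thin bar) and its range when each of the 8 samples was left out in turn (shaded bar), where red marks called chains. Col5a3 ranged from −1.73 to −1.41, and Col5a2 lay on either side of 0.

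The chains of type I were the most abundant of the 10 and were not called. *Col1a2* (ENSMUSG00000029661, GRCm38 chr6:4504814-4541544, plus strand) encodes the α2 chain of type I collagen and ranked 4th in mean CPM among all genes tested. Its level was 11606, 12131, 7208 and 12608 CPM in SCA1-High-FAPs replicates 1 to 4, and 7112, 10031, 11284 and 5558 CPM in SCA1-Low-FAPs. The groups overlapped, with SCA1-High-FAPs above SCA1-Low-FAPs in 14 of 16 pairs of samples. Its log2 fold change was −0.36 (SE 0.22, edgeR adjusted p = 0.394). *Col1a1* (ENSMUSG00000001506, chr11:94936224-94953042, plus strand), which encodes the α1 chain, ranked 6th. It was at 6928, 8829, 5648 and 8650 CPM in SCA1-High-FAPs and at 5701, 7301, 8126 and 5028 CPM in SCA1-Low-FAPs. The groups overlapped, with SCA1-High-FAPs above SCA1-Low-FAPs in 11 of 16 pairs of samples, and the log2 fold change was −0.20 (SE 0.18, edgeR adjusted p = 0.587). With single samples left out neither gene was called. Without SCA1-Low-FAPs replicate 3 the log2 fold changes were −0.54 for *Col1a2* and −0.33 for *Col1a1*, and without its replicate 4 they were −0.21 and −0.10. In both genes SCA1-High-FAPs replicate 3 was the lowest sample of its group and SCA1-Low-FAPs replicate 3 the highest of its own.

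*Col3a1* (ENSMUSG00000026043, chr1:45311538-45349706, plus strand) encodes the only chain of type III collagen, which forms mixed fibrils with type I in soft tissue, and it ranked 14th. Its level was 5786, 3951, 5196 and 5412 CPM in SCA1-High-FAPs, and 1751, 2731, 3951 and 1552 CPM in SCA1-Low-FAPs. The groups met at SCA1-High-FAPs replicate 2 and SCA1-Low-FAPs replicate 3, which were level to the nearest whole CPM, and the other samples were apart. The means were 5086 ± 795 and 2496 ± 1098 CPM (SD, n = 4 each). The log2 fold change was −1.03 (SE 0.26, edgeR adjusted p = 0.0294), and −1.35 without SCA1-Low-FAPs replicate 3 (edgeR adjusted p = 0.000412). The call was lost in 6 of the 8 fits that left out 1 sample, all but those without SCA1-High-FAPs replicate 2 or SCA1-Low-FAPs replicate 3, with library totals in place of TMM (edgeR adjusted p = 0.0512) and with no filter on low counts (edgeR adjusted p = 0.0932).

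Type V collagen is assembled from the chains of *Col5a1*, *Col5a2* and *Col5a3*, and only the last of them was called. *Col5a1* (ENSMUSG00000026837, chr2:27886425-28039514, plus strand), whose chain is needed for fibrils to start, was at 980 ± 176 CPM in SCA1-High-FAPs, close to the 1084 ± 137 CPM of SCA1-Low-FAPs (SD, n = 4 each), with a log2 fold change of 0.15 (SE 0.16, edgeR adjusted p = 0.657). *Col5a2* (ENSMUSG00000026042, chr1:45374321-45503282, minus strand) was at 1047 CPM in both, with an SD of 334 and 291 CPM. Its log2 fold change, −0.0003 (SE 0.25, edgeR adjusted p = 1.00), changed sign between alternatives. *Col5a3* (ENSMUSG00000004098, chr9:20770050-20815067, minus strand) encodes the rarer α3 chain, known from muscle and adipose tissue among others.

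*Col5a3* was at 402, 230, 328 and 213 CPM in SCA1-High-FAPs and at 114, 76.3, 105 and 89.2 CPM in SCA1-Low-FAPs. The lowest sample of SCA1-High-FAPs was well above the highest of SCA1-Low-FAPs, and the means were 293 ± 88.5 and 96.1 ± 16.7 CPM (SD, n = 4 each). This gave a log2 fold change of −1.61 (SE 0.20, edgeR adjusted p = 0.000394). Of the 10 chains it was the only one called in all 8 fits that left out 1 sample.

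*Col3a1* and *Col5a2* are neighbours on chromosome 1 that point towards each other, with 24614 bases between their ends. Only the former was called. The count ratio of *Col3a1* to *Col5a2* was 4.37, 3.74, 9.03 and 4.40 in SCA1-High-FAPs and 1.98, 2.32, 2.84 and 2.10 in SCA1-Low-FAPs. All ratios of SCA1-High-FAPs exceeded those of SCA1-Low-FAPs.

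The 250 bases before the transcription start are shown for *Col3a1* and *Col5a3*, both higher in SCA1-High-FAPs, and for *Col5a1*, the partner chain of *Col5a3* that was not called, so that chains with like and unlike changes can be compared. RefSeq windows on GRCm38.p6 were matched for 6 of the 10 chains (the other three being *Col1a2*, *Col27a1* and *Col16a1*), and in the 3 shown the RefSeq start is the start of the gene in GENCODE M21. The windows lie at chr1:45311288-45311537 (plus strand) for *Col3a1*, chr9:20815068-20815317 (minus strand) for *Col5a3* and chr2:27886175-27886424 (plus strand) for *Col5a1*, each written 5′ to 3′ along its gene. Capitals mark the CCAAT box, the GC box read as GGGCGG and the TATA box read as TATAAA, on either strand. A GC box of the opposite strand is seen as its reverse complement.
Col3a1: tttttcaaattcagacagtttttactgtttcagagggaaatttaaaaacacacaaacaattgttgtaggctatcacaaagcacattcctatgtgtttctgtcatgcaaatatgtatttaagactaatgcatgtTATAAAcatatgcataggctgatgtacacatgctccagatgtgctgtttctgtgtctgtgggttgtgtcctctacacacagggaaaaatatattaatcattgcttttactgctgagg
Col5a3: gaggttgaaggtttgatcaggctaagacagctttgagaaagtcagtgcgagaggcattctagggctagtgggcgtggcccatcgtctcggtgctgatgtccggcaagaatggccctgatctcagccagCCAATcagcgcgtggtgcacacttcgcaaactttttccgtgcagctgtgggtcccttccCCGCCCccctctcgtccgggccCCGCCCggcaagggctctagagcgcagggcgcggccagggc
Col5a1: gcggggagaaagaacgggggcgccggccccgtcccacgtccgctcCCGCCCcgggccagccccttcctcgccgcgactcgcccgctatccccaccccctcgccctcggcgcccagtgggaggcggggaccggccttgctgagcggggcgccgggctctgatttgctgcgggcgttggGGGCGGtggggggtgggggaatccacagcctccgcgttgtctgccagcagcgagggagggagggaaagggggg

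The *Col3a1* window holds 35.2% G and C and no CpG, and its one marked match is TATAAA at position −117 from the start. The *Col5a3* window holds 62.8% G and C and 17 CpG, with CCAAT at −122 and GGGCGG on the opposite strand at −63 and −41. The *Col5a1* window holds 76.4% G and C and 28 CpG, with GGGCGG at −205 on the opposite strand and at −73. The median over all 32851 windows is 52.4% G and C. CCAAT is found in 33.9% of all windows, GGGCGG in 32.7% and TATAAA in 12.4%. TGACTCA, found in 4.46% of all windows, is in none of the 6. These letters describe the windows only, and no binding was measured.

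*Col27a1* (ENSMUSG00000045672, chr4:63214004-63334991, plus strand) encodes a fibrillar chain best known from cartilage, and had the lowest level of the 10. Its level was 56.2, 67.0, 66.4 and 80.9 CPM in SCA1-High-FAPs and 13.9, 15.2, 47.0 and 13.1 CPM in SCA1-Low-FAPs. The groups did not overlap, and in SCA1-Low-FAPs replicate 3 was far above the other three. This amounted to a log2 fold change of −1.58 (SE 0.36, edgeR adjusted p = 0.0163), and −2.28 without that replicate (edgeR adjusted p = 3.7e-05). The call was lost without SCA1-Low-FAPs replicate 1 or replicate 2.

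The 2 FACIT chains that were called went in opposite directions. *Col12a1* (ENSMUSG00000032332, chr9:79598991-79718831, minus strand), whose product binds type I fibrils in tendon, muscle and other load-bearing tissue, was at 211, 288, 122 and 229 CPM in SCA1-High-FAPs and at 386, 427, 325 and 356 CPM in SCA1-Low-FAPs. Every sample of SCA1-Low-FAPs was above every sample of SCA1-High-FAPs. The means were 213 ± 68.6 and 373 ± 43.4 CPM (SD, n = 4 each), a log2 fold change of 0.81 (SE 0.20, edgeR adjusted p = 0.0215). The call was lost without SCA1-High-FAPs replicate 1, SCA1-Low-FAPs replicate 1 or SCA1-Low-FAPs replicate 2.

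*Col14a1* (ENSMUSG00000022371, chr15:55307750-55520803, plus strand) encodes a FACIT chain that interacts with the proteoglycan decorin. It was at 283, 372, 460 and 488 CPM in SCA1-High-FAPs and at 106, 156, 271 and 96.0 CPM in SCA1-Low-FAPs. The groups did not overlap, but SCA1-Low-FAPs replicate 3 lay just under the lowest sample of SCA1-High-FAPs. The log2 fold change was −1.35 (SE 0.32, edgeR adjusted p = 0.0328), and −1.76 without that replicate (edgeR adjusted p = 9.9e-05). The call was lost in 6 of the 8 fits that left out 1 sample, and remained without SCA1-High-FAPs replicate 1 or SCA1-Low-FAPs replicate 3. It was also lost with no filter on low counts (edgeR adjusted p = 0.107).

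*Col16a1* (ENSMUSG00000040690, chr4:130047840-130099283, plus strand) encodes the FACIT chain of type XVI. It was at 136, 173, 187 and 174 CPM in SCA1-High-FAPs and at 116, 90.9, 141 and 120 CPM in SCA1-Low-FAPs. Only SCA1-High-FAPs replicate 1 fell within the range of the other state, and SCA1-High-FAPs was above SCA1-Low-FAPs in 15 of 16 pairs of samples. With a log2 fold change of −0.51 (SE 0.17, edgeR adjusted p = 0.0700) it was not called. It passed in 1 of the 8 fits that left out 1 sample, that without SCA1-Low-FAPs replicate 3, at a log2 fold change of −0.63 (edgeR adjusted p = 0.0350). Of the annotated genes that overlap the 10 chains, only *4930562D21Rik* within *Col12a1* and *1700040F17Rik* within *Col14a1* were in the count tables, both on the opposite strand and both at 0 counts in all samples.

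Ratios of 2 chains in the same sample do not depend on how the libraries are scaled. Of 8 ratios, 5 passed an exact permutation test of the log2 ratio between the cell states (two-sided, 70 possible assignments). Each of the 5 had an exact permutation p of 0.0286, the smallest this design allows. After adjustment over the 8 it was 0.0457, a value reached because 5 stood at that smallest p together. The test treats the 8 samples as independent, though samples of the 2 states may share a mouse. Some of the 5 share a chain, and the pairs were chosen with earlier results of these data known. In these 5 the groups did not overlap. *Col5a3* to *Col5a1*, 2 chains of type V, was 0.534, 0.208, 0.352 and 0.188 in SCA1-High-FAPs and 0.115, 0.0673, 0.0837 and 0.0932 in SCA1-Low-FAPs. SCA1-High-FAPs thus had 3.33-fold more *Col5a3* for each *Col5a1*. *Col12a1* to *Col14a1* was 0.745, 0.774, 0.265 and 0.470 in SCA1-High-FAPs and 3.64, 2.73, 1.20 and 3.70 in SCA1-Low-FAPs, which put *Col14a1* ahead in all 4 samples of the first state and *Col12a1* ahead in all 4 of the second. The log2 difference of this ratio was 2.31, between chains that were each called and in opposite directions.

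*Col12a1* to *Col1a1*, the FACIT chain against the bulk chain, was 0.0278 ± 0.00483 and 0.0592 ± 0.0139 (SD, n = 4 each), 2.11-fold higher in SCA1-Low-FAPs. *Col16a1* to *Col14a1* was 0.427 ± 0.0568 and 0.862 ± 0.366 (SD, n = 4 each), 1.89-fold higher in SCA1-Low-FAPs. *Col3a1* to *Col5a2*, given above, differed by −1.14 on the log2 scale. *Col3a1* to *Col1a1*, chains of types III and I, was 0.835, 0.447, 0.920 and 0.626 in SCA1-High-FAPs and 0.307, 0.374, 0.486 and 0.309 in SCA1-Low-FAPs. Its groups overlapped at SCA1-High-FAPs replicate 2 and SCA1-Low-FAPs replicate 3, and its log2 difference of −0.91 did not pass (exact permutation p = 0.0571, adjusted 0.0762). *Col1a1* to *Col1a2*, the chains of the type I trimer, was 0.699 ± 0.0787 and 0.789 ± 0.0857 (SD, n = 4 each; log2 difference 0.18, exact permutation p = 0.171, adjusted 0.196). *Col5a1* to *Col5a2* was 1.04 ± 0.436 and 1.07 ± 0.175 (SD, n = 4 each; log2 difference 0.13, exact permutation p = 0.743, adjusted 0.743). With single samples left out the 5 ratios that passed kept their direction. There are then 35 possible assignments, and the adjusted p, 0.0457 without a sample of SCA1-Low-FAPs and 0.0762 to 0.114 without a sample of SCA1-High-FAPs, is too coarse to speak for or against stability.

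**Figure D3:**
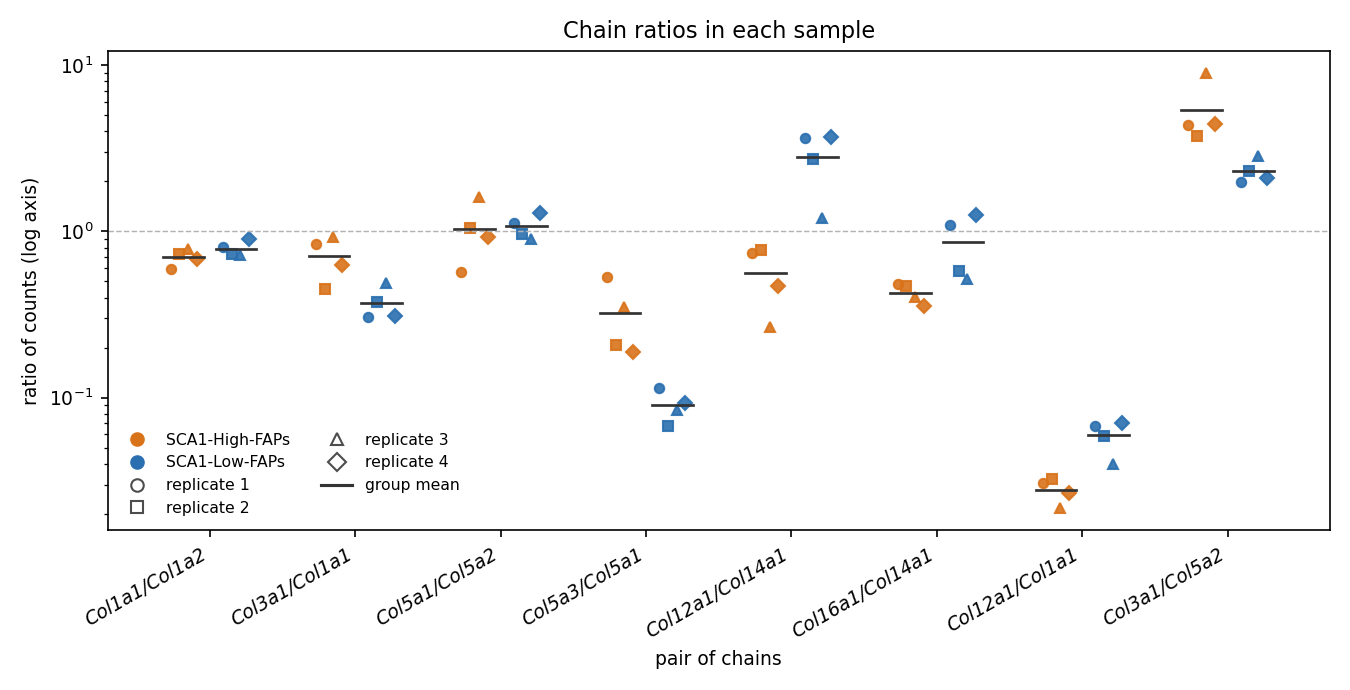
Ratio of the counts of 2 chains (log axis) in each sample of SCA1-High-FAPs (orange) and SCA1-Low-FAPs (blue), with one symbol per replicate number, a bar at each group mean and a dashed line at a ratio of 1. Col12a1/Col14a1 is under 1 in all SCA1-High-FAPs and above 1 in all SCA1-Low-FAPs.

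Together the 10 chains held 2.70% ± 0.458 of all gene counts in SCA1-High-FAPs (SD, n = 4, from 2.02% to 3.04%) and 2.03% ± 0.600 in SCA1-Low-FAPs (SD, n = 4, from 1.39% to 2.75%). These ranges overlapped. *Col1a1* and *Col1a2* made up 68.5% ± 5.17 and 73.7% ± 1.31 of the counts of the 10 chains in the same order (SD, n = 4 each), and *Col3a1* 19.5% ± 4.70 and 11.8% ± 2.01 (SD, n = 4 each). For 100 counts of type I there were 12.8 ± 1.28 and 15.1 ± 1.42 counts of type V, and 4.39 ± 1.11 and 4.46 ± 0.763 counts of FACIT chains (SD, n = 4 each). Relative to type I, the summed FACIT counts were thus close in both states, while their makeup differed. Of all gene counts, the FACIT chains held 0.0788% ± 0.0108 and 0.0643% ± 0.00869 in the same order (SD, n = 4 each). The ranges, 0.0654% to 0.0898% and 0.0547% to 0.0752%, overlapped. These shares were not tested. In order of level, *Col1a2*, *Col1a1* and *Col3a1* led in both states with *Col1a2* above *Col1a1* in all 8 samples. *Col5a1* and *Col5a2* came next and their ranges overlapped in both states, each the higher in 2 of 4 samples. In SCA1-High-FAPs they were followed by *Col14a1*, *Col5a3*, *Col12a1*, *Col16a1* and *Col27a1*, and in SCA1-Low-FAPs by *Col12a1*, *Col14a1*, *Col16a1*, *Col5a3* and *Col27a1*. The ranges of neighbours in these orders overlapped with 8 exceptions. In SCA1-High-FAPs they were apart between *Col3a1* and *Col5a2*, between *Col5a1* and *Col14a1*, and between *Col16a1* and *Col27a1*. In SCA1-Low-FAPs they were apart between *Col1a1* and *Col3a1*, between *Col3a1* and *Col5a1*, between *Col5a2* and *Col12a1*, between *Col12a1* and *Col14a1*, and between *Col5a3* and *Col27a1*.

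**Figure D4:**
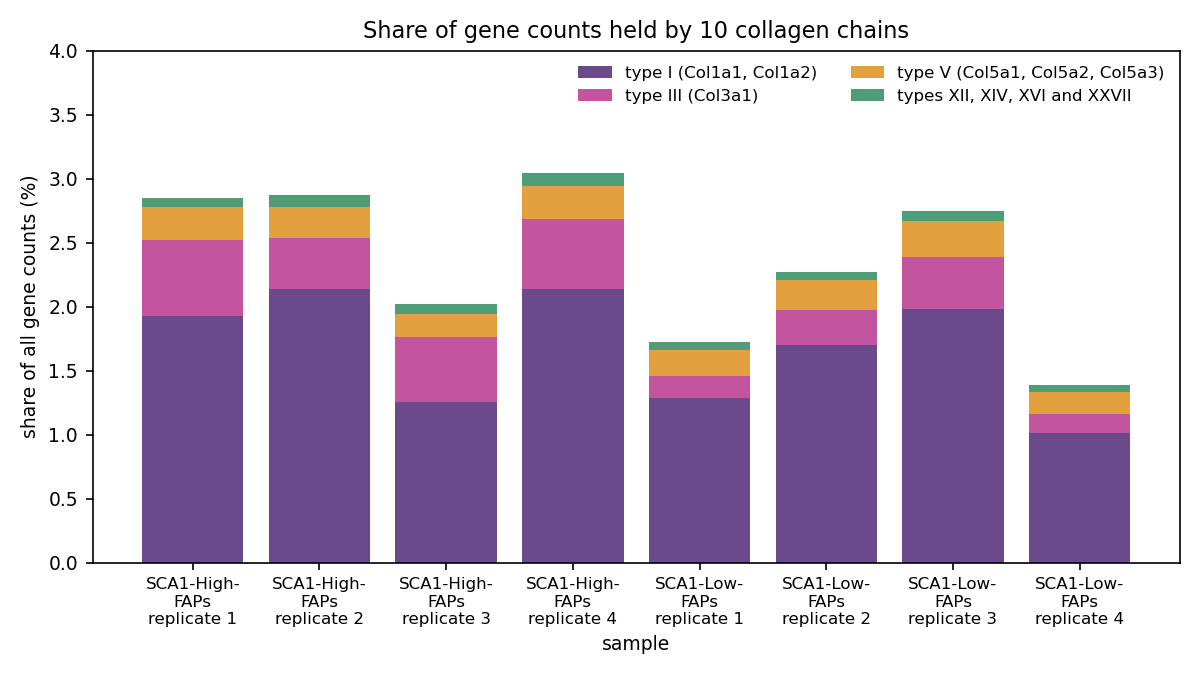
Share of all gene counts (%) held by the 10 chains in each sample, divided into type I, type III, type V and the remaining types. The share runs from 1.39% in SCA1-Low-FAPs replicate 4 to 3.04% in SCA1-High-FAPs replicate 4, and most of it is type I.

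Within the states, several pairs of chains varied together from sample to sample. After the mean of each state was taken off the log2 CPM, Pearson's r over the 8 samples was 0.95 between *Col1a1* and *Col1a2*, the highest of the 45 pairs, and 0.94 between *Col1a2* and *Col5a2*. It was 0.90 between *Col27a1* and *Col14a1*, and 0.80 between *Col3a1* and *Col14a1*. The lowest value was −0.72, between *Col5a1* and *Col5a3*. The median over pairs was 0.47, and 31 of 45 were above 0. These values describe 8 samples that share their libraries and scaling. SCA1-Low-FAPs replicate 3 was high in most chains, and the correlations were not recomputed without it. Among the 1932 candidate genes with a mean of at least 100 CPM, those most like *Col1a1* by the same measure were *Dclk1* (r = 0.98), *Scpep1* (r = 0.97) and *Rpl10a* (r = 0.96). Those most like *Col3a1* were *Igfbp4* (r = 0.98), *Vegfd* (r = 0.98) and *Oat* (r = 0.97), and those most like *Col12a1* were *Tmem263* (r = 0.97), *Tpm4* (r = 0.96) and *Thbs2* (r = 0.96).

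Other chains of fibrils were scarce. Of 11 further fibrillar and FACIT genes, 10 were found by symbol and 2 passed the filter on low counts. *Col11a1*, a chain of type XI, which is the counterpart of type V in cartilage, was at 29.2 ± 7.65 and 58.6 ± 11.8 CPM (SD, n = 4 each), a log2 fold change of 1.00 (SE 0.24, edgeR adjusted p = 0.0159), and the call was lost without SCA1-Low-FAPs replicate 1 (log2 fold change 0.86, edgeR adjusted p = 0.0721). *Col2a1*, the main collagen of cartilage, was at 0.726 ± 1.45 and 10.2 ± 3.05 CPM (SD, n = 4 each), the first of which is under the floor of 3 counts. It passed the filter only through the samples of SCA1-Low-FAPs, so its values are given with no test. *Col9a1*, *Col19a1* and *Col22a1* had 0 counts in all samples, and *Col11a2*, *Col24a1*, *Col9a2*, *Col9a3* and *Col20a1* were too low to test.

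The genes that modify, secrete, cut and crosslink procollagen were called about as often as genes in general. Of 28 such genes 25 were tested and 2 were called, 1 in each direction, a share of 8.0% beside 7.68% of all genes, and the median log2 fold change was 0.06. In place of 2, 4 were called without SCA1-Low-FAPs replicate 3. *Adamts2*, the protease that removes the amino-terminal propeptide of procollagens I, II and III, was at 455 ± 63.5 and 285 ± 20.1 CPM (SD, n = 4 each), with a log2 fold change of −0.68 (SE 0.14, edgeR adjusted p = 0.00763). *Loxl3*, of the lysyl oxidase family that crosslinks collagen, was at 62.7 ± 10.9 and 120 ± 16.3 CPM (SD, n = 4 each), with a log2 fold change of 0.94 (SE 0.18, edgeR adjusted p = 0.00348). The most abundant of them, *Lox* itself, was at 3981 ± 619 and 4159 ± 208 CPM (SD, n = 4 each; log2 fold change 0.06, edgeR adjusted p = 0.864). *Serpinh1*, the collagen chaperone HSP47, was at 982 ± 246 and 1027 ± 268 CPM (SD, n = 4 each; edgeR adjusted p = 0.904).

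Among proteins that bind the fibril surface, 6 of 14 tested genes were called, all higher in SCA1-High-FAPs, a share of 42.9% beside 4.36% of all genes, and the median log2 fold change of the 14 was −0.52. At an adjusted p of 0.01 in edgeR there was 1, *Comp*. *Dcn*, decorin, the proteoglycan that regulates fibril width, showed the widest difference, with a log2 fold change of −2.08 (SE 0.39, edgeR adjusted p = 0.0167) between 587 ± 306 and 139 ± 50.5 CPM (SD, n = 4 each). *Comp*, a thrombospondin that promotes fibril assembly, fell by 1.41 on the log2 scale in SCA1-Low-FAPs relative to SCA1-High-FAPs (edgeR adjusted p = 0.00173). *Ogn*, osteoglycin, and *Fbln1*, fibulin 1, had log2 fold changes of −1.27 and −1.03. *Fn1*, fibronectin, on which collagen fibrils are laid down, had one of −0.64 and the highest level of the 6, at 2824 ± 195 and 1818 ± 352 CPM (SD, n = 4 each). *Postn*, periostin, was the sixth. Of the 6, 2 (*Comp* and *Ogn*) were called without SCA1-Low-FAPs replicate 4, and 3 (with *Dcn* added) without SCA1-Low-FAPs replicate 1. *Bgn*, biglycan, was at 2719 ± 412 and 2781 ± 334 CPM (SD, n = 4 each; edgeR adjusted p = 0.937).

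Of 14 collagen receptor and turnover genes 10 were tested, and the median log2 fold change was 0.003. The 2 called were both higher in SCA1-High-FAPs, 20.0% of those tested beside 4.36% of all genes. Of these 2, *Fap* passed the filter on low counts only through SCA1-High-FAPs. *Itga1*, the α1 integrin subunit of a collagen receptor, was at 575 ± 63.0 and 220 ± 64.5 CPM (SD, n = 4 each), with a log2 fold change of −1.38 (SE 0.19, edgeR adjusted p = 0.000529). *Fap*, a serine protease of activated fibroblasts that degrades cut collagen, was at 61.9 ± 35.9 and 5.23 ± 4.28 CPM (SD, n = 4 each). Because of that filter its values are given with no test. The collagenases *Mmp8* and *Mmp13* were too low to test.

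Markers of other cells and of the cell cycle also moved with the cell states. Beside the counts that follow, 4.36% of all genes tested were called higher in SCA1-High-FAPs and 3.32% higher in SCA1-Low-FAPs. Of 12 adipocyte genes 11 were tested and 7 were called, all higher in SCA1-High-FAPs. Some of the 7 were near the floor in SCA1-Low-FAPs and passed the filter only through SCA1-High-FAPs. The summed level of the 12 was 3509 to 13274 CPM in SCA1-High-FAPs and 707 to 1743 CPM in SCA1-Low-FAPs, with *Lpl* the highest. All 12 mitosis genes were called higher in SCA1-Low-FAPs, with summed levels of 726 to 1008 CPM in SCA1-High-FAPs and 1448 to 2140 CPM in SCA1-Low-FAPs, and *Top2a* the highest. The part of fat cell differentiation or of cycling cells in the collagen differences was not tested. Of 10 myogenic genes 1, *Acta1*, passed the filter on low counts, and only through SCA1-Low-FAPs. It was not called, and because of that filter its values, 2.03 ± 1.11 and 8.45 ± 2.68 CPM (SD, n = 4 each), are given with no test. The 10 myogenic genes summed to 2.70 to 11.2 CPM in SCA1-High-FAPs and 7.25 to 22.7 CPM in the other state, with *Pax7*, *Myf5*, *Myod1*, *Myog*, *Ckm* and *Myh3* at 0 in all samples. Of 7 endothelial genes 1, *Egfl7*, was tested and not called, with sums of 6.56 to 16.6 and 6.94 to 14.7 CPM in the same order and *Emcn* at 0. Of 9 leucocyte genes 1 was tested, *Lyz2*, and called higher in SCA1-High-FAPs, with sums of 25.2 to 47.7 and 12.4 to 19.2 CPM and with *Adgre1*, *Tyrobp*, *Cd3e* and *Cd79a* at 0.

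Of 7 mural genes 3 were tested, and 1 was called higher in SCA1-High-FAPs and 2 higher in SCA1-Low-FAPs. Each of the 3 passed the filter only through the state in which it was higher. The 7 genes summed to 26.1 to 50.1 and 29.0 to 66.6 CPM with *Myh11* the highest. Of 5 glial genes 2 were tested and 1, *Ncam1*, was called higher in SCA1-Low-FAPs, with sums of 149 to 257 and 250 to 359 CPM. Of 9 tendon and cartilage genes 3 were tested and 0 called by edgeR. *Tnmd*, which passed the filter only through SCA1-High-FAPs, had an unadjusted edgeR p under 0.05. The 9 genes summed to 571 to 789 and 489 to 929 CPM, with *Acan* at 0 and *Sox9* the highest. This sum was highest in SCA1-Low-FAPs replicate 3, the sample in which the collagen genes stood apart.

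The order of the samples was compared between each of the 10 chains and the 2 marker sums, a comparison chosen after the values were seen. Within SCA1-High-FAPs, the order of the summed adipocyte genes was matched by 1 chain, *Col5a3*, and that of the summed mitosis genes by 2, *Col1a1* and *Col12a1*. Within SCA1-Low-FAPs, the adipocyte order was matched by 7 chains, *Col1a1*, *Col1a2*, *Col3a1*, *Col5a1*, *Col5a2*, *Col27a1* and *Col14a1*, and the mitosis order by 0. The 7 chains share the same order, so their matches are not separate observations. All these orders rest on 4 samples each and were not tested.

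**Figure D5:**
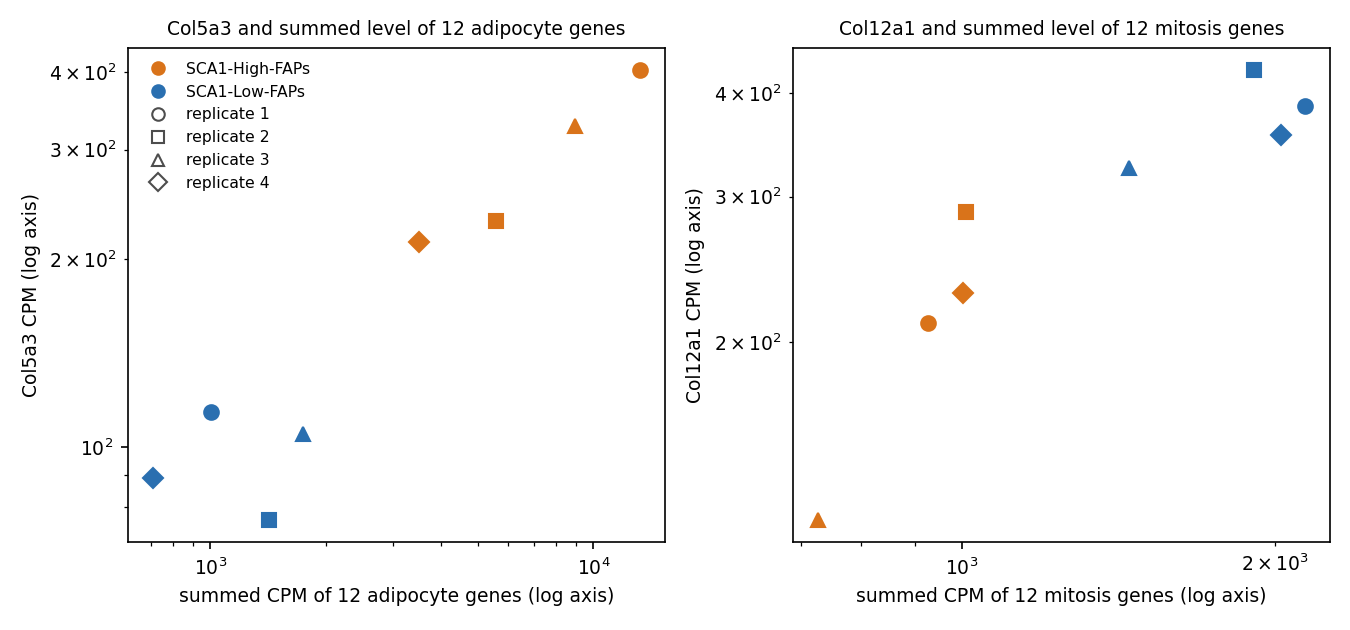
CPM of Col5a3 against the summed CPM of 12 adipocyte genes (left) and CPM of Col12a1 against that of 12 mitosis genes (right), both on log axes, with one point per sample, SCA1-High-FAPs in orange and SCA1-Low-FAPs in blue, for 2 chains picked after their values were seen. The cell states are apart on both axes of both plots.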

How the data were processed

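The authors trimmed the reads of QuantSeq 3′ mRNA libraries, aligned them with STAR to mm10, counted them with htseq-count on Ensembl release 93 and deposited the raw counts per gene without normalisation. Reads with several positions were given to no gene, and a strand setting is not given in the sources used here. Of the 31053 gene identifiers, names and GRCm38 positions were found for 31011 in GENCODE M21, and 5 summary entries were left out. Of the reads given to a gene, to no gene feature or to several genes at once, 13.3% to 16.4% fell on no gene feature. Reads with several positions were outside this total.

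The 4 samples of each cell state, as labelled, were compared in edgeR 4.0.16 (R 4.3.3) by its quasi-likelihood test in robust form, after TMM scaling and filterByExpr (10 counts, 15 in total), and adjusted p-values of genes are from there. The SE is the size of a log2 fold change over the square root of its F statistic. Ratios were taken on raw counts. Within-state variation used log2 CPM with 2 as prior count. Python 3.11.15, pandas 2.3.3, scipy 1.17.1 and matplotlib 3.10.9 did the rest.

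The study's own tool, DESeq2 1.42.0, was an alternative. Others were RLE factors, library totals, scaling without the 10 chains, no filter, 10 counts per sample throughout, a block for the replicate number, an adjusted p of 0.01 and each sample left out in turn. For the overlap of groups, library totals were added after the data were seen. Ratios were repeated with 0.5 added to each count and shares without mitochondrial genes. The chains, gene lists and tests were chosen with earlier results of these data known. Named were all 10 chains, up to 5 called genes of each pathway list with the largest log2 fold changes, the 3 genes most like *Col1a1*, *Col3a1* and *Col12a1*, and in cell type lists the highest gene and those at 0, of which 1 is not reported here. *Ly6a*, *Thy1*, *Pdgfra*, *Tnmd*, *Lox*, *Serpinh1*, *Bgn*, *Postn* and genes too low to test were named outside this rule, after their values were seen. The study's other assays were not analysed here.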

Additional observations from a re-analysis of the deposited data

Results flagged for a closer look

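In 2 of 38 groups of 4 samples, 1 sample lay farther from the others than the usual critical value of Dixon's test for the gap over the range, and chance does so in about 1 in 20 groups. The *Col3a1* to *Col5a2* ratio was 9.03 in SCA1-High-FAPs replicate 3, above 3.74 to 4.40 in the other three. That sample had the lowest *Col5a2* level of all, 575 CPM. *Col27a1* was at 47.0 CPM in SCA1-Low-FAPs replicate 3, above 13.1 to 15.2 CPM in the other three.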

How the results depend on the processing

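Over 405 values recomputed under alternatives, 318 kept their direction and their side of the threshold or their size, and *Col5a3* was called in every fit. The log2 fold change of *Col5a2*, −0.0003, became 0.0024 with DESeq2, 0.0015 with RLE factors, 0.0052 with the 10 chains left out of scaling and 0.014 with no filter, and ranged from −0.20 to 0.14 with single samples left out, all smaller than its SE of 0.25. With no filter 2 chains were called higher in SCA1-High-FAPs in place of 4, *Col3a1* and *Col14a1* missing with adjusted p = 0.0932 and 0.107 (edgeR), and with library totals *Col3a1* missed. At an adjusted p of 0.01 (edgeR) there were 1 chain higher in SCA1-High-FAPs and 0 higher in the other state, among 307 genes in all (181 and 126), where DESeq2 called 1065 genes and the same 5 chains. The cause was not tested.

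With single samples left out, 410 to 1017 genes were called, 246 to 583 of them higher in SCA1-High-FAPs and 159 to 434 higher in SCA1-Low-FAPs, with 1 to 5 and 0 to 1 of the chains. For the numbers of genes the extremes were without SCA1-Low-FAPs replicate 1 or 4 and without its replicate 3. Log2 ratio differences ranged from −1.95 to −1.45 for *Col5a3* to *Col5a1*, 1.99 to 2.68 for *Col12a1* to *Col14a1*, 0.70 to 1.13 for *Col16a1* to *Col14a1*, 0.96 to 1.25 for *Col12a1* to *Col1a1* and −1.28 to −0.86 for *Col3a1* to *Col5a2*. That of *Col5a1* to *Col5a2* ranged from −0.13, without SCA1-High-FAPs replicate 1, to 0.38.

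Samples with the same replicate number did not deviate together, with correlations of −0.050 to 0.0067, so the numbers were not taken to pair them. Across the 12 pairs with other numbers the correlations ran from −0.28 to 0.25. For SCA1-High-FAPs replicates 1, 2, 3 and 4 the highest were 0.16, 0.13, 0.25 and 0.14, with SCA1-Low-FAPs replicates 2, 1, 4 and 3. Whether these samples share a mouse was not tested, and no fit paired them in this way. With the replicate number as a block, the same 5 chains were called by edgeR (697 genes) and DESeq2 (841 genes), and *Col5a2* stood at 0.014 and 0.015. The exact tests of ratios cannot go below 0.0286, and the lowest count of a chain in a library was 28, of *Col27a1*.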
